A study of Hordeum vulgare with 22 samples.

Results

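Homeobox genes encode transcription factors that bind DNA through a homeodomain, and 60 of the 24318 barley transcripts in the deposited expression table are described here. They are all rows whose annotation contains the word homeobox or knotted, apart from the row-type gene VRS1 and its neighbour, with which the words match 62 rows. By annotation and listed domains, 9 are KNOX genes, 3 are BELL genes, 9 are WUSCHEL-related (WOX) genes and 33 are homeodomain-leucine zipper (HD-Zip) genes, and 6 are other homeobox genes. Of the 60 members, 49 list a homeodomain family among their Pfam protein domains and 11 list none. The HD-Zip genes were divided by the Pfam domains that the table lists. The START lipid-binding domain and the MEKHLA domain together mark class III (6 genes), START without MEKHLA is the pattern of class IV (10 genes), and the HALZ leucine zipper domain marks classes I and II (13 genes), while 4 list none of these domains. One of the 10 genes with START alone is annotated HOX10, the name of a class III gene in rice, and may be a shortened gene model. After a filter on low counts 55 members could be tested, and none had counts identical to those of another transcript.

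Class I KNOX proteins keep cells of the shoot meristem undifferentiated, partly by raising cytokinin and lowering gibberellin, and KNOX proteins act as pairs with BELL proteins. The KNOX genes here were not divided into classes. WOX proteins maintain stem cells and pattern early organs and embryos. Class III HD-Zip proteins set the upper side of leaves, the shoot meristem and the vascular strands, class IV proteins act in the outer cell layer of shoots, and classes I and II take part in growth and in responses to light and water supply. These roles are known mainly from Arabidopsis, maize and rice.

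RNA was sequenced from inflorescences of the barley cultivar Bowman, the wild type here, and of mnd1.a, a near-isogenic line with a mutant allele of the many-noded dwarf gene MND1, which encodes an N-acyltransferase. A near-isogenic line can also carry donor chromosome around the mutant gene. Both lines grew in days of 16 h light at 22 °C and nights of 8 h at 18 °C, and tissue was taken at 3 points of the Waddington scale: W2.0, the double ridge, W3.5, when florets form stamen initials, and W5.0, when florets are further advanced. Each piece also held the inflorescence base and small leaves under it. In this order of stages Bowman had 3, 4 and 4 libraries, and mnd1.a had 3, 3 and 4. Whether the libraries of a group are from different plants is not labelled, and p-values therefore measure the spread between these libraries, which may be technical. In pieces of tissue, fewer cells of a type and less RNA per cell cannot be told apart.

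Library totals lay between 11436651 and 21596190 estimated counts, and values are given as CPM (a gene's share of its library, scaled by TMM). Without transcript lengths, CPM is compared within a gene only. The level of 3 counts, the limit a count of 0 allows, came to between 0.139 and 0.262 CPM by library. MND1 itself was below Bowman in every mnd1.a library at all 3 stages, with log2 fold changes of -1.40 (adjusted p = 0.115), -2.38 (adjusted p = 0.00141) and -1.33 (adjusted p = 0.00653). The 4 Bowman W3.5 libraries were spread along the first principal component of all genes, at -10.8, 62.4, 17.5 and 105.2, where Bowman lay between -114.2 and -91.8 at W2.0 and between 31.4 and 121.4 at W5.0. On the same axis mnd1.a lay between -111.2 and -76 at W2.0, between -13.1 and -1.2 at W3.5 and between 12.8 and 37 at W5.0. At W3.5 the mnd1.a libraries thus lay beside Bowman library 1 and below the other Bowman libraries. The library code prefix was 1327 for Bowman and 1328 for mnd1.a at W5.0, so code and line cannot be told apart there. Both lines had 1328 at W2.0 and 1327 at W3.5.

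The question of each line comparison is which homeobox genes differ between mnd1.a and Bowman at the same stage. A gene is called higher or lower at an adjusted p under 0.05 in edgeR's quasi-likelihood test, adjusted over all 21132 genes tested. At W2.0 no member was called, where 0.497% of all genes were higher and 0.293% lower in mnd1.a. At an unadjusted p under 0.05 there were 6 members at W2.0, and DESeq2 and limma-voom also called 0. At W3.5, 3 of the 55 members were higher and 3 lower (5.45% each), beside 1.77% and 2.13% of all genes. At W5.0, 11 members were higher and 5 lower (9.09%), beside 15.0% and 15.2% of all genes. The median log2 fold change of the members was 0.07, -0.02 and 0.02 at the 3 stages, against -0.01 over all genes at each. Bowman and mnd1.a libraries had no overlap for 10, 9 and 16 of the 55 members, and for 18.4%, 12.9% and 34.2% of all genes. The calls at W3.5 changed with the fit. Fitted on the groups of that stage alone, edgeR called 0 members higher and 0 lower, and fitted on all groups without Bowman W3.5 libraries 2 and 4 it called 1 and 1. Leaving out mnd1.a library 1 or 2 at W3.5 gave 1 higher and 1 lower, and leaving out Bowman library 1 or 4 gave 5 or 1 lower. At W5.0 there were 6 higher and 3 lower without Bowman library 2, 7 higher without mnd1.a library 3 and 3 lower without mnd1.a library 4.

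Stage steps within a line ask which members change as the inflorescence develops. The library code prefix changes along with the stage in every step but W3.5 to W5.0 in Bowman, and with line and stage in the interactions that involve W5.0, so in these code and stage cannot be told apart. From W2.0 to W3.5 in Bowman 11 members rose, beside 14.2% of all genes, and 9 fell, beside 15.2%. The same step in mnd1.a had 0 members higher, beside 1.59% of all genes, and 2 lower, beside 2.19%, with 14 members at an unadjusted p under 0.05 in either direction and 2 calls in all by DESeq2. From W3.5 to W5.0 in Bowman 5 members rose, beside 3.89% of all genes, and 0 fell, beside 3.7%, with 11 at an unadjusted p under 0.05 and 8 calls in all by DESeq2. In mnd1.a 10 members rose over that step, beside 5.12% of all genes, and 2 fell, beside 5.01%. The difference between the lines' steps was tested as an interaction of line with stage. It called 0 members for W3.5 against W2.0, beside 0.189% of all genes, 1 for W5.0 against W3.5, beside 1.02%, and 4 for W5.0 against W2.0, beside 10.3%. For the first of these, 12 members had an unadjusted p under 0.05, and DESeq2 called 2 and limma-voom 0. The 20 calls of the first step in Bowman became 12 without W2.0 library 1, and the 5 of its second step became 0 without W3.5 library 1 or W5.0 library 2 or 4, 3 without W5.0 library 3, 9 without W5.0 library 1 and 10 without W3.5 library 4. The 12 calls of the second step in mnd1.a became 4, 2 and 6 without W3.5 library 1, 2 and 3, and 7, 5 and 5 without W5.0 library 2, 3 and 4. The 2 of its first step became 0 without W3.5 library 1 or 2 and 1 without W2.0 library 1 or 3. The 4 calls of the last interaction became 0 without Bowman W2.0 library 2, 8 without Bowman W2.0 library 3, and 1 or 2 without any of 9 other libraries, and the single call of the interaction before it was lost without any of 14. These comparisons share libraries with the line comparisons and with each other, so they are not separate evidence. In all, 19 members were called in a line comparison, 29 in a stage step and 5 in an interaction, and 19 in no line comparison and no step. These totals were not counted over all genes, so they do not show whether homeobox genes differ from other genes.

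**Figure D1:**
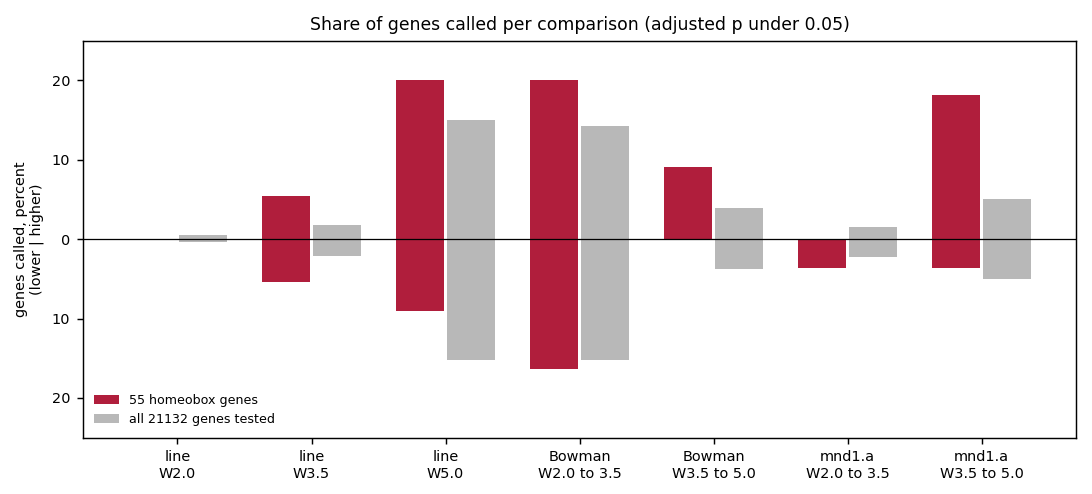
Percent of genes called higher (above 0) or lower (below 0) at an adjusted p under 0.05 in the 3 line comparisons (mnd1.a against Bowman) and the 4 stage steps, for the 55 homeobox genes tested (red) and for all 21132 genes (grey). Homeobox genes had 0 calls between the lines at W2.0, 5.45% in each direction at W3.5, and 18.2% higher from W3.5 to W5.0 in mnd1.a beside 5.12% of all genes.

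**Figure D2:**
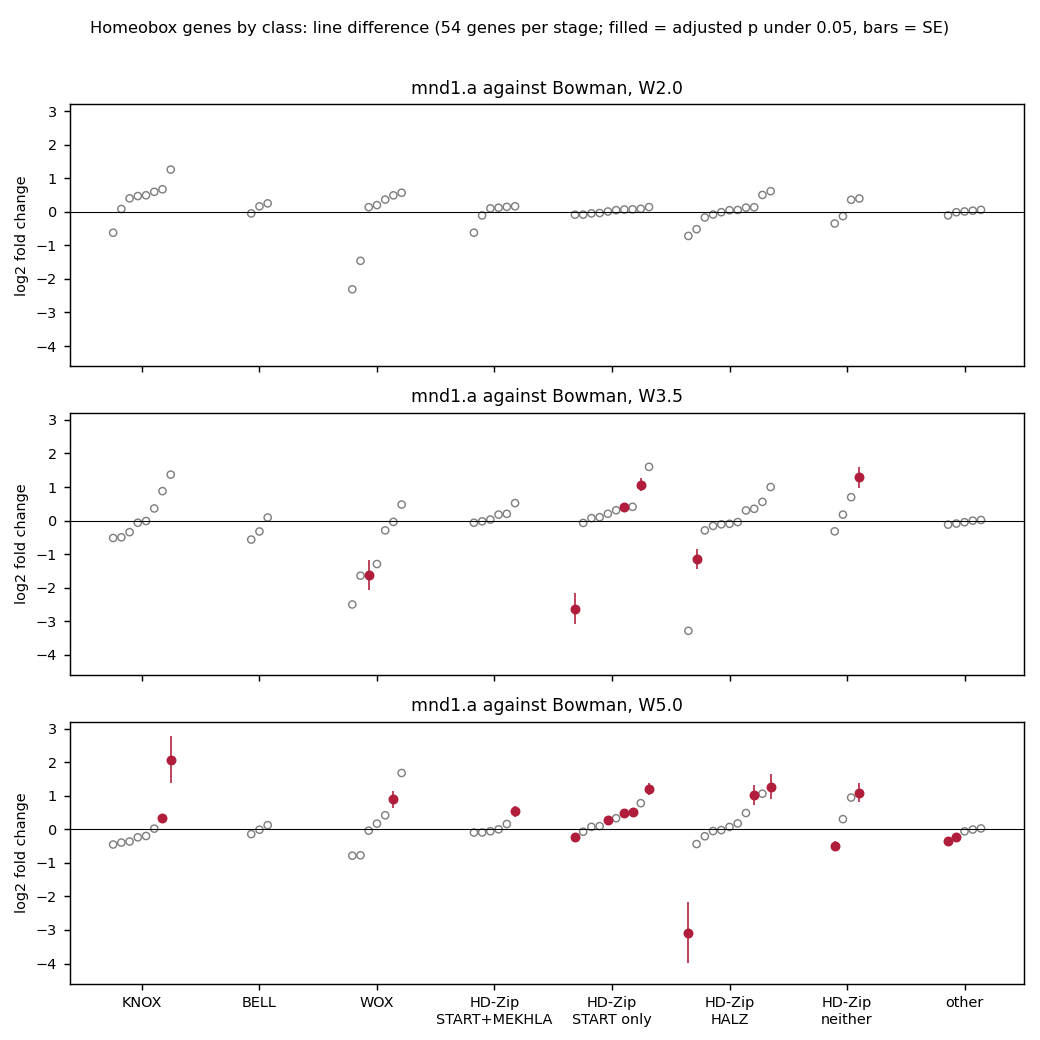
Log2 fold change of mnd1.a against Bowman at each stage, with 1 point for each tested homeobox gene, grouped by class. Filled red points passed an adjusted p of 0.05 and carry their standard error. The LUMINIDEPENDENS copy on 7H, at 0 counts in every mnd1.a library, is not drawn. No point is filled at W2.0, and the called genes with a START domain lie above 0 at W5.0 except HOX10 on 5H at -0.21.

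Among the KNOX genes, 4 of 8 tested members rose and 1 fell from W2.0 to W3.5 in Bowman, beside 14.2% and 15.2% of all genes. None was called over the same step in mnd1.a, where 1.59% of all genes rose and 2.19% fell. The interaction of W3.5 against W2.0, which compares these steps between the lines, called no KNOX gene. Knotted-1-like 6 (HORVU4Hr1G009730, 4H:27784123-27792181), which carries the name given to rice OSH1, a marker of indeterminate meristem cells, stood at 52.9, 52.1 and 95.7 CPM in the Bowman libraries at W2.0 and at 139, 150, 110 and 204 CPM at W3.5. In mnd1.a it stood at 95.7, 95.7 and 86.8 CPM at W2.0 and at 110, 101 and 145 CPM at W3.5. The Bowman libraries did not overlap between these stages, and at W2.0 the mnd1.a libraries lay with Bowman library 3, above the other Bowman pair. The log2 fold change over the step was 1.17 ± 0.22 (SE, adjusted p = 0.000981) in Bowman and stayed between 0.98 and 1.52 without each library in turn.

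Both knotted-1-like 12 genes also rose over that step in Bowman. The copy on 5H (HORVU5Hr1G098570, 5H:608243814-608250710) had 13, 11.3 and 19.4 CPM in Bowman at W2.0, 26.6, 34.5, 26.1 and 55 CPM at W3.5, and 37.9, 42.8, 31.5 and 42.8 CPM at W5.0. In mnd1.a it had 22.8, 24.2 and 22.7 CPM at W2.0, 23.1, 22.2 and 29.7 CPM at W3.5 and 28.4, 23.9, 33.5 and 27.4 CPM at W5.0. Every mnd1.a library thus lay above every Bowman library at W2.0, and the lines overlapped at the later stages. The rise over the first step in Bowman was 1.28 ± 0.23 on the log2 scale (adjusted p = 0.000821). The line difference was lower at W5.0 than at W2.0 by 1.12 (interaction log2 fold change -1.12, adjusted p = 0.0334).

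The copy on 2H (HORVU2Hr1G061320, 2H:411902059-411906598) had 12.3, 8.58 and 17.6 CPM in Bowman at W2.0 and between 17.5 and 29.9 CPM at the later stages. In mnd1.a it had 19.6, 21.8 and 16.9 CPM at W2.0, 25.8, 19.5 and 27.4 CPM at W3.5 and 18.6, 14.7, 17.8 and 17.7 CPM at W5.0. The mnd1.a libraries overlapped with Bowman at each stage, with the mnd1.a mean above Bowman's at W2.0 and below it at W5.0. Its first step in Bowman was 0.98 ± 0.21 (adjusted p = 0.00193) and its interaction of W5.0 against W2.0 was -0.99 (adjusted p = 0.0341). Each of these interactions kept its call in 11 of 21 fits that left out 1 library, with adjusted p up to 0.101 for the 5H copy and 0.0982 for the 2H copy, and lost it without Bowman library 1 or 2 of W2.0 and without Bowman library 2 or 4 of W5.0, among others.

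Knotted-1-like 1 (HORVU1Hr1G015720) also rose in Bowman over the first step, by 0.66 ± 0.21 (adjusted p = 0.025), from a mean of 5.69 ± 1.84 (SD, n = 3) to 9.09 ± 2.39 CPM (n = 4). This call was lost without Bowman W2.0 library 1 or 2 or W3.5 library 2 or 4. Knotted-1-like 3 (HORVU4Hr1G084680) went the other way, with 1.39, 0.545 and 2.2 CPM at W2.0 and 0.32, 0.083, 0.0862 and 0.169 CPM at W3.5 in Bowman, where the groups did not overlap and the last 3 values lay near the level of a few counts (-3.02 on the log2 scale, adjusted p = 0.00189). In mnd1.a it had a mean of 0.891 ± 0.237 CPM (n = 3) at W2.0 and 0.308 ± 0.167 CPM (n = 3) at W3.5, with no call. Knotted-1-like 2 (HORVU6Hr1G028610) was called in no comparison and lay between 24.9 and 33.3 CPM over all 21 libraries.

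**Figure D3:**
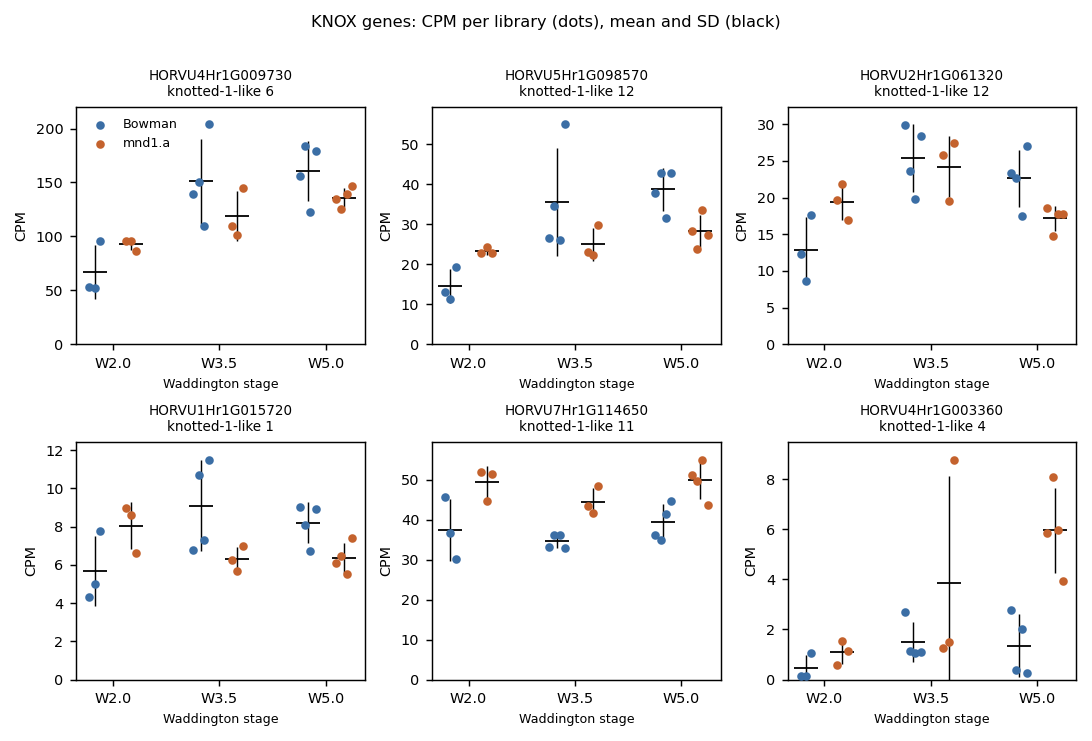
CPM of 6 KNOX genes in each library by Waddington stage, Bowman in blue and mnd1.a in orange, with the group mean and SD in black (the lower bar ends at 0). In Bowman, knotted-1-like 6 rose from a mean of 66.9 to 151 CPM between W2.0 and W3.5, and in knotted-1-like 4 the 4 mnd1.a libraries at W5.0 (3.94 to 8.11 CPM) lie above the 4 Bowman libraries (0.254 to 2.79 CPM).

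Between the lines, 2 of 8 KNOX genes were higher in mnd1.a at W5.0 and none was lower, beside 15.0% and 15.2% of all genes. No KNOX gene was called between the lines at W2.0 or W3.5. Knotted-1-like 4 (HORVU4Hr1G003360, 4H:7065106-7078124) had 5.85, 8.11, 5.98 and 3.94 CPM in mnd1.a at W5.0 and 2.79, 0.385, 2.03 and 0.254 CPM in Bowman. All mnd1.a libraries were above all Bowman libraries, and the difference was 2.08 ± 0.69 (adjusted p = 0.0301). At W3.5 mnd1.a library 3 stood at 8.79 CPM beside 1.28 and 1.51 CPM in the others. The W5.0 call was lost without Bowman library 2 or 4 or without mnd1.a library 2 or 3, with log2 fold changes from 1.75 to 2.71. A second knotted-1-like 4 gene (HORVU4Hr1G003410), which starts 123048 bp after the end of the first, had 58 counts in all libraries together and was not tested.

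Knotted-1-like 11 (HORVU7Hr1G114650, 7H:639840183-639843759) lies on 7H near MND1, which the table places at 7H:637080378-637082097. It had 51.2, 49.6, 55 and 43.6 CPM in mnd1.a against 36.1, 34.9, 41.4 and 44.7 in Bowman at W5.0, so that 1 library of each line overlapped. The difference was 0.34 ± 0.11 (adjusted p = 0.0239) and the call was lost without Bowman library 1 or 2 or mnd1.a library 1 or 3. At W3.5 its 3 mnd1.a libraries, at 43.5, 41.7 and 48.3 CPM, were all above the 4 Bowman libraries, at 33 to 36.2 CPM, without passing the test. An effect of the mutation and of donor chromosome beside it cannot be told apart for this gene.

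The 3 BELL genes, all annotated as BEL1 homologs and possible partners of KNOX proteins, showed no call between the lines at any stage. The member on 1H (HORVU1Hr1G072850) had 48.4, 38.9 and 54.8 CPM in Bowman at W2.0 and 63.3, 80.1, 76.2 and 85.5 CPM at W3.5. It rose by 0.69 ± 0.13 (adjusted p = 0.001), with no overlap between the stages, and this call held without each library. In mnd1.a the same gene went from 60.8 ± 11.9 CPM (SD, n = 3) at W3.5 to 84.9 ± 5.18 CPM (n = 4) at W5.0, by 0.48 ± 0.13 (adjusted p = 0.0241), a call lost without mnd1.a W3.5 library 1 or 2 or W5.0 library 3 or 4. The other two BEL1 homologs ranged from 1.59 to 10.6 CPM (HORVU4Hr1G003750) and from 18.1 to 35.7 CPM (HORVU7Hr1G088090), and were called in no comparison.

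Of the 9 WOX genes, 7 were tested. At W3.5, 6 of these 7 had a negative log2 fold change in mnd1.a, with a median of -1.29. Only WOX7 (HORVU3Hr1G060950, 3H:464417446-464421050) was called, where 2.13% of all genes were called lower. WOX7 had 0.924, 0.636 and 0.976 CPM in mnd1.a against 0.959, 3.82, 1.64 and 4.47 in Bowman at that stage. Bowman library 1 lay among the mnd1.a libraries, while libraries 2 and 4, the pair farthest along the first principal component, were highest. The difference was -1.63 ± 0.45 (adjusted p = 0.0474), and it was -0.62 (adjusted p = 0.425) without Bowman libraries 2 and 4. The call held in 3 of 21 fits that left out 1 library, and leaving out any library of either W3.5 group ended it except Bowman libraries 1 and 3. It was also lost with limma-voom and with no filter on low counts.

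From W3.5 to W5.0 in mnd1.a all 7 WOX genes had a positive log2 fold change, with a median of 1.57 beside -0.004 over all genes. Of the 7, 3 were called higher, beside 5.12% of all genes. WOX1 on 1H (HORVU1Hr1G010580) had 1.85, 1.67 and 0.61 CPM at W3.5 and 5.44, 5.25, 3.71 and 4.35 CPM at W5.0, with no overlap (1.78 ± 0.47, adjusted p = 0.0206). WOX7 went from 0.846 ± 0.183 CPM (n = 3) to 2.55 ± 0.31 CPM (n = 4), by 1.57 ± 0.45 (adjusted p = 0.0333). The WOX8 gene HORVU1Hr1G087950 had 0.284, 0 and 0.061 CPM at W3.5, 5 counts in all, and 0.824, 0.849, 0.908 and 0.575 CPM at W5.0, 40 counts in all (2.68 ± 0.79, adjusted p = 0.0364). Its neighbour HORVU1Hr1G087940, also annotated WOX8 and 332 bp away on 1H, was called in no comparison and ranged from 0 to 2.44 CPM. The first of these calls was lost without mnd1.a W3.5 library 2 or 3, and each of the others without any of 6 libraries of these groups; limma-voom called neither WOX1 on 1H nor WOX7. Bowman had none of its 7 WOX genes called over that step, and no WOX gene was called in the interaction of W5.0 against W3.5, where all 7 values were positive.

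WOX1 on 5H (HORVU5Hr1G049190) was the WOX gene called between the lines at W5.0, where 15.0% of all genes were higher. It had 1.81, 1.54, 1.44 and 1.81 CPM in mnd1.a against 1.06, 0.642, 0.732 and 1.08 in Bowman, where every mnd1.a library was higher (0.90 ± 0.25, adjusted p = 0.0118). The call held without each library and under every alternative fit tried. WOX4 (HORVU2Hr1G113820), known in rice for shoot meristem maintenance and in Arabidopsis for the vascular cambium, had 1.4, 1.39, 1.82 and 1.07 CPM in mnd1.a against 0.798, 0.257, 0.619 and 0 in Bowman at W5.0. All mnd1.a libraries were higher, without a call. WOX13 (HORVU3Hr1G080660) lay between 7.92 and 13.8 CPM in all libraries.

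**Figure D4:**
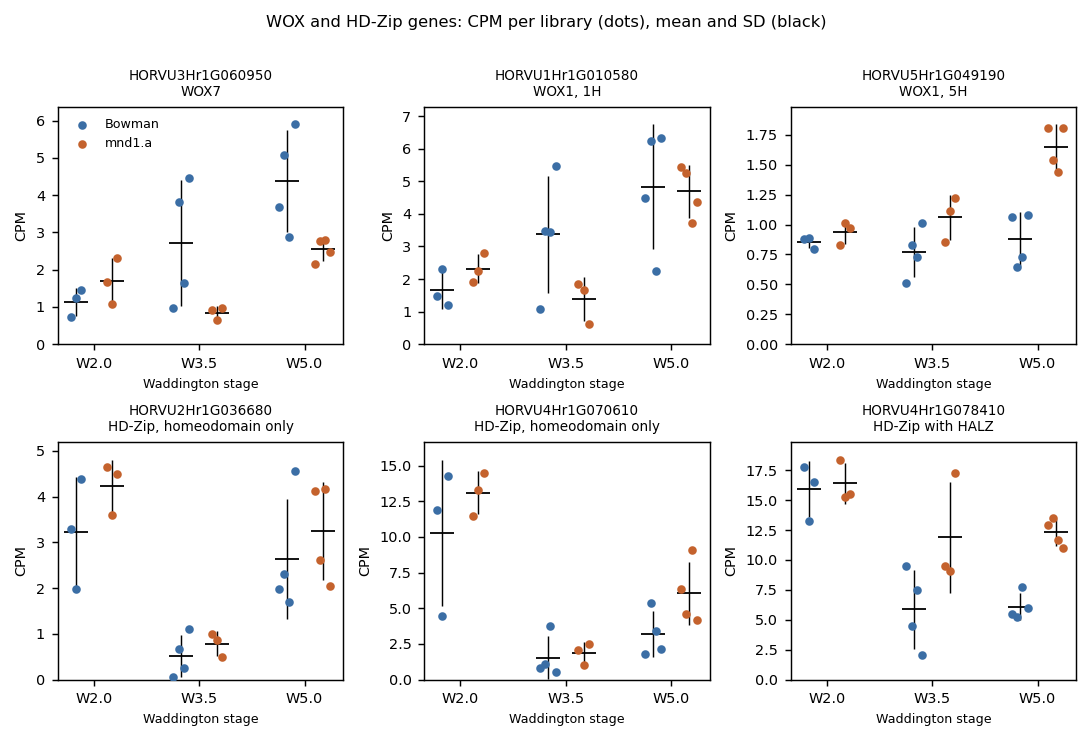
CPM of 3 WOX genes (top) and 3 HD-Zip genes (bottom) in each library by Waddington stage, Bowman in blue and mnd1.a in orange, with the group mean and SD in black (the lower bar ends at 0). The HD-Zip genes that list a homeodomain alone stand lower at W3.5 than at W2.0 in both lines, for example HORVU2Hr1G036680 with means of 3.22 and 0.52 CPM in Bowman against 4.24 and 0.786 in mnd1.a.

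Among the 6 class III HD-Zip genes, none was called at W2.0 or W3.5, and 1 was higher at W5.0, beside 15.0% of all genes. That gene (HORVU3Hr1G026990, 3H:113025336-113033485) had 12.8, 14, 17 and 11 CPM in mnd1.a against 10.6, 10.9, 9.52 and 6.72 in Bowman at W5.0, where all mnd1.a libraries were above all Bowman libraries (0.54 ± 0.17, adjusted p = 0.0236). The call was lost without Bowman library 4 or mnd1.a library 2 or 3. It fell in Bowman from 24.7, 23.5 and 17.2 CPM at W2.0 to 13, 10.3, 12.6 and 8.26 CPM at W3.5 (-0.97 ± 0.18, adjusted p = 0.000816).

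Other class III genes were called between the lines at no stage. HORVU5Hr1G010650 had means between 206 and 260 CPM in the 6 groups, and HOX32 on 5H (HORVU5Hr1G093150) had means between 145 and 179 CPM. HORVU1Hr1G041790 rose in Bowman from 183 ± 9.41 CPM (n = 3) to 251 ± 19.3 CPM (n = 4) over the first step (0.45 ± 0.09, adjusted p = 0.0012), with no overlap. HOX10 on 4H (HORVU4Hr1G090030) fell in mnd1.a from 116 ± 4.35 CPM (n = 3) at W3.5 to 92.4 ± 1.78 CPM (n = 4) at W5.0 (-0.33 ± 0.10, adjusted p = 0.0482), a call kept in 4 of 21 fits that left out 1 library and lost with limma-voom, RLE scaling or no filter.

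The HD-Zip genes with START and no MEKHLA domain, the class IV pattern, included members called between the lines at both later stages. Of 10 tested, 2 were higher and 1 lower in mnd1.a at W3.5, where 1.77% of all genes were higher and 2.13% lower. At W5.0, 4 were higher and 1 lower, where 15.0% of all genes were higher and 15.2% lower. Their median log2 fold change at W5.0 was 0.31 beside -0.01 over all genes. Homeobox-leucine zipper protein 3 (HORVU5Hr1G080700, 5H:562043258-562050913) had 14.5, 17.2 and 10.7 CPM in Bowman against 13.6, 15.1 and 15.8 in mnd1.a at W2.0, where the lines overlapped. At W3.5 it had 7.35, 6.47, 9.05 and 4.64 CPM in Bowman against 12.4, 12.7 and 18.8 in mnd1.a. At W5.0 it had 11.6, 8.22, 9.01 and 11.2 CPM in Bowman against 18.8, 25.6, 22.8 and 25 in mnd1.a.

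Every mnd1.a library of that gene was thus above every Bowman library at both later stages. The log2 difference was 1.07 ± 0.21 (adjusted p = 0.00569) at W3.5 and 1.20 ± 0.19 (adjusted p = 0.000167) at W5.0, where it had the lowest p of the 55 members. The line difference was larger at W5.0 than at W2.0 by 1.12 (interaction adjusted p = 0.0187), a call lost without Bowman W2.0 library 2. The W5.0 call held without each library, with values from 1.11 to 1.28, and in all other fits. The W3.5 value was 0.83 (adjusted p = 0.0637) without Bowman libraries 2 and 4. In Bowman the gene fell by 1.02 on the log2 scale from W2.0 to W3.5 (adjusted p = 0.00152).

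Among the other genes of this pattern higher in mnd1.a at W5.0, HORVU6Hr1G079410 had 63.5, 64.2, 73.9 and 74.1 CPM in mnd1.a against 49.7, 44.1, 50.8 and 47.3 in Bowman (0.52 ± 0.12, adjusted p = 0.00307). HORVU2Hr1G106970 had 150, 157, 161 and 179 CPM in mnd1.a against 118, 120, 107 and 118 in Bowman (0.48 ± 0.14, adjusted p = 0.0143). HORVU6Hr1G065300 had 80.9, 78.4, 85 and 83.6 CPM in mnd1.a against 64.2, 64.2, 72.7 and 68.6 in Bowman (0.28 ± 0.09, adjusted p = 0.0262). The lines did not overlap for any of these genes at W5.0. HORVU6Hr1G065300 was also higher at W3.5 (0.40 ± 0.10, adjusted p = 0.028), and its calls were lost without any of 3 libraries at W3.5 and of 4 at W5.0. For HORVU6Hr1G079410 the line difference was larger at W5.0 than at W2.0 by 0.61 (interaction adjusted p = 0.0382), kept in 12 of 21 fits that left out 1 library.

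HORVU2Hr1G095210 (2H:668997933-669004500) was the member with the lowest p at W3.5 and moved the opposite way. It had 1.49, 1.11 and 1.4 CPM in mnd1.a against 2.56, 7.55, 6.29 and 17.2 in Bowman at W3.5. All mnd1.a libraries were lower, and the Bowman libraries were spread, with library 4 highest. The difference was -2.62 ± 0.46 (adjusted p = 0.00328), and it was -1.74 (adjusted p = 0.0154) without Bowman libraries 2 and 4 and not called by limma-voom (adjusted p = 0.0637).

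At the other stages the lines of that gene overlapped, with 3.13 ± 0.861 CPM in Bowman and 3.14 ± 0.809 CPM in mnd1.a (n = 3 each) at W2.0, and 7.87 ± 1.24 and 7.49 ± 1.55 CPM (n = 4 each) at W5.0. From W3.5 to W5.0 it rose in mnd1.a by 2.47 ± 0.46 (adjusted p = 0.0023), a call that held without each library. The interaction of W5.0 against W3.5 was 2.55 ± 0.58 (adjusted p = 0.0386). That call was kept in 7 of 21 fits that left out 1 library and was lost without Bowman W3.5 libraries 2 and 4 (1.66, adjusted p = 0.0503) and with limma-voom.

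The remaining genes of this pattern included the member annotated HOX10 on 5H (HORVU5Hr1G061410), with 52.8, 46, 47.8 and 52.1 CPM in mnd1.a against 54.2, 67.3, 56.9 and 52 in Bowman at W5.0. The lines overlapped, and its call (-0.21 ± 0.08, adjusted p = 0.0481) was lost in 14 of 21 fits that left out 1 library, libraries of other stages included, and with RLE scaling, limma-voom or the fit on 2 groups alone. HORVU1Hr1G050620 and HORVU7Hr1G073440 rose in Bowman from W3.5 to W5.0 by 0.48 each (adjusted p = 0.0231 and 0.0321). HORVU7Hr1G073440 also rose over that step in mnd1.a (0.46, adjusted p = 0.0435), and neither gene was called between the lines. Each of these step calls was lost without any of 3 or more libraries. A ROC6 gene on 4H (HORVU4Hr1G062510), named after a family of rice genes of the outermost cell layer, had 1.14, 1.19 and 0.793 CPM in mnd1.a against 0.32, 0.332, 0.474 and 0.169 in Bowman at W3.5, with no overlap and no call.

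**Figure D5:**
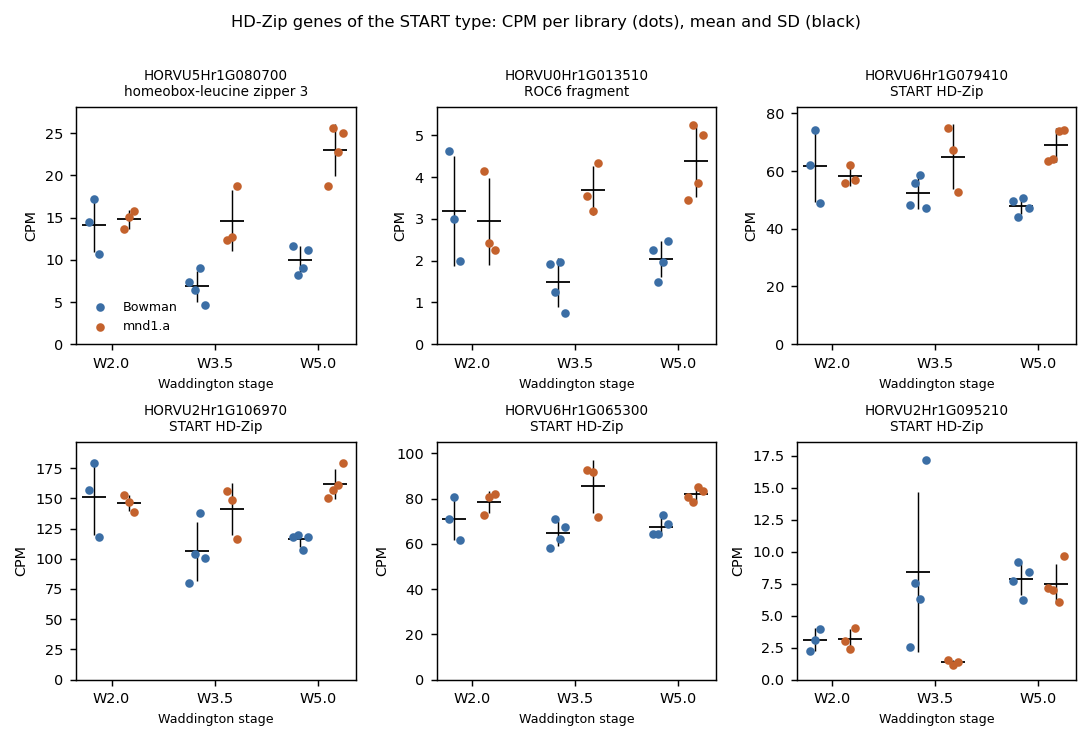
CPM of 6 HD-Zip genes of the START type in each library by Waddington stage, Bowman in blue and mnd1.a in orange, with the group mean and SD in black (the lower bar ends at 0). ROC6 (HORVU0Hr1G013510) is included by its name and lists no domain. In the first 5 genes every mnd1.a library is above every Bowman library at W5.0, while HORVU2Hr1G095210 is lower in mnd1.a at W3.5 alone, at 1.11 to 1.49 CPM.

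Markers of the epidermis, here genes with the annotation words lipid-transfer protein or 3-ketoacyl-CoA synthase, were counted in the same comparisons. Of 76 tested, 5 were higher and 0 lower in mnd1.a at W3.5, beside 1.77% and 2.13% of all genes. At W5.0, 23 were higher and 1 lower, beside 15.0% and 15.2% of all genes. Their summed level ranged from 1450 to 2350 CPM in Bowman and from 2180 to 2500 CPM in mnd1.a at W3.5, and from 1550 to 1960 and from 2090 to 2360 CPM at W5.0, with 5 and 8 of the 102 genes at 0 there. At W2.0 the summed level was also higher in mnd1.a, at 2970 to 3030 CPM beside 2420 to 2750 CPM, while no marker and no gene of the class IV pattern was called. The part of epidermal tissue in the differences was not tested.

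Of the 13 HD-Zip genes with a HALZ domain, 11 were tested, and 1 was lower at W3.5, beside 2.13% of all genes. At W5.0, 2 were higher and 1 lower, beside 15.0% and 15.2% of all genes. HORVU4Hr1G078410 (4H:607441638-607443946) had 12.9, 13.5, 11.7 and 11 CPM in mnd1.a against 5.45, 5.2, 7.71 and 5.96 in Bowman at W5.0, with no overlap (1.01 ± 0.30, adjusted p = 0.0165). In Bowman it fell from 15.9 ± 2.34 CPM (n = 3) at W2.0 to 5.86 ± 3.28 CPM (n = 4) at W3.5 (-1.40 ± 0.32, adjusted p = 0.00345). Homeobox-leucine zipper protein 4 on 7H (HORVU7Hr1G018780) had 7.17, 8.49, 9.01 and 9.04 CPM in mnd1.a against 3.86, 2.25, 3.72 and 4.06 in Bowman at W5.0, also with no overlap (1.27 ± 0.38, adjusted p = 0.0172). Both W5.0 calls were lost without Bowman library 2, at adjusted p of 0.0508 and 0.0592.

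HORVU5Hr1G081090 was lower at W3.5, with 1.07, 1.67 and 2.56 CPM in mnd1.a beside 2.62, 3.07, 5.94 and 4.13 CPM in Bowman. The groups did not overlap but came close (-1.16 ± 0.30, adjusted p = 0.0343), and the call was lost without Bowman library 3 or 4 or mnd1.a library 1 or 2 and with limma-voom. In mnd1.a it rose again to 4.37 ± 0.628 CPM (n = 4) at W5.0 (1.29 ± 0.30, adjusted p = 0.00976), lost without mnd1.a W3.5 library 1 or 2. Homeobox-leucine zipper protein 4 on 2H (HORVU2Hr1G097940) fell over that step in mnd1.a from 3.48 ± 1.77 CPM (n = 3) to 1.17 ± 0.226 CPM (n = 4), with adjusted p = 0.00797. Without mnd1.a W3.5 library 3, at 5.31 CPM, the call was lost (adjusted p = 0.05).

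HORVU2Hr1G092710 (2H:654963171-654965963) was scarce. It had 0, 0.154, 0 and 0.329 CPM in mnd1.a at W5.0, 6 counts in all, and 0.798, 2.25, 0.901 and 0.381 CPM in Bowman, 75 counts in all. Every Bowman library was higher, and the difference was -3.08 ± 0.91 (adjusted p = 0.0154), lost without Bowman library 2 (-2.47, adjusted p = 0.0641). It was called higher at W3.5 than at W2.0 in Bowman, from 2 to 55 counts in all, of which library 3 alone had 1.77 CPM, and the call was lost without that library, without Bowman W2.0 library 1 or 2 and with limma-voom. The HALZ gene HORVU5Hr1G059410, not tested for its low counts, had 45 counts in the 3 Bowman libraries at W2.0, at 1.17, 0.476 and 1.46 CPM, and 3 counts in the 3 mnd1.a libraries, at 0.166, 0 and 0.0608 CPM. In the other groups it had between 0 and 5 counts. HORVU6Hr1G061390, also not tested, had 61 counts in Bowman at W3.5, where library 3 stood at 2.41 CPM, and 1 count in mnd1.a.

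Among the 4 HD-Zip genes that list neither domain, HORVU2Hr1G036680 and HORVU4Hr1G070610 were the members that fell in both lines from W2.0 to W3.5. HORVU2Hr1G036680 (2H:163983474-163984871) had 3.3, 1.97 and 4.39 CPM at W2.0, 0.0639, 0.664, 0.258 and 1.1 CPM at W3.5 and 1.99, 2.31, 1.69 and 4.57 CPM at W5.0 in Bowman. In mnd1.a it had a mean of 4.24 ± 0.571 CPM (SD, n = 3), then 0.996, 0.875 and 0.488 CPM, then 4.12, 2.62, 4.16 and 2.05 CPM. All W3.5 libraries were below all others of their line. The fall was -2.74 ± 0.52 (adjusted p = 0.00105) in Bowman and -2.44 ± 0.54 (adjusted p = 0.0166) in mnd1.a, and the rise that followed was 2.44 ± 0.50 (adjusted p = 0.0185) and 2.05 ± 0.52 (adjusted p = 0.0179). The rise in Bowman was lost without W3.5 library 1 or W5.0 library 2 or 4 and was 3.85 without W3.5 libraries 2 and 4, and the rise in mnd1.a was lost without any 1 of its W3.5 libraries.

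HORVU4Hr1G070610 (4H:576958593-576960104) had 11.9, 4.49 and 14.3 CPM in Bowman at W2.0 and 0.831, 1.08, 3.75 and 0.506 CPM at W3.5 (-2.61 ± 0.53, adjusted p = 0.00189). In mnd1.a it had 11.5, 13.3 and 14.5 CPM and then 2.06, 1.03 and 2.5 CPM (-2.79 ± 0.59, adjusted p = 0.0144). The stages did not overlap in either line. Both falls in Bowman held without each library, and without Bowman W3.5 libraries 2 and 4 they were -4.14 and -2.11. In mnd1.a the falls were lost without W3.5 library 1 or 2, and that of HORVU2Hr1G036680 also without W3.5 library 3 or W2.0 library 1 or 3.

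Markers of vascular tissue, here genes annotated laccase or xylem and some annotated cellulose synthase, fell over the same step. The words used do not limit the cellulose synthases to those of the secondary wall. Of 22 tested, 13 fell in Bowman, beside 15.2% of all genes, and 8 in mnd1.a, beside 2.19%, with 0 higher in either. Their summed level went from between 445 and 543 CPM at W2.0 to between 164 and 454 CPM at W3.5 in Bowman, with 1 of 23 at 0, and from between 418 and 459 to between 312 and 431 CPM in mnd1.a. Nuclear photosynthesis genes, markers of green leaf, rose over that step in Bowman for 56 of 78 tested and fell for 4. Beside these stood 14.2% and 15.2% of all genes. Summed, the photosynthesis genes went from a median of 436 CPM, and at most 511 CPM, to between 1400 and 1900 CPM. At W2.0 they were higher in mnd1.a for 31 of 78, beside 0.497% of all genes, at 860 to 1520 CPM summed. Epidermis markers fell in Bowman from W2.0 to W3.5 for 37 of 76 and rose for 1, beside 15.2% and 14.2% of all genes. The part of these tissues in the members' stage steps was not tested.

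The other two genes without a listed domain lie on unplaced sequence. ROC6 (HORVU0Hr1G013510) had 3.56, 3.18 and 4.33 CPM in mnd1.a against 1.92, 1.24, 1.98 and 0.759 in Bowman at W3.5 (1.28 ± 0.32, adjusted p = 0.0297). At W5.0 it had 3.46, 5.25, 3.86 and 5.01 CPM in mnd1.a against 2.26, 1.48, 1.97 and 2.47 in Bowman (1.10 ± 0.29, adjusted p = 0.00841). The lines did not overlap at either stage. The W5.0 call held without each library, while the W3.5 call was lost without Bowman library 2 or 4 and without each mnd1.a library. A fragment annotated ATHB-9 (HORVU0Hr1G010160), the name of a class III gene in Arabidopsis, had 10.1, 11.2, 12.9 and 10.2 CPM in mnd1.a against 18.5, 13.4, 16.4 and 13.8 in Bowman at W5.0. All mnd1.a libraries were lower (-0.48 ± 0.15, adjusted p = 0.0181), and the call was lost without Bowman library 1 or mnd1.a library 1 or 4.

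Of the 6 other homeobox genes, 2 were lower in mnd1.a at W5.0, beside 15.2% of all genes. Both are annotated HOX1A, a homeodomain protein with a PHD finger first described in maize. HORVU3Hr1G071350 had 206, 199, 209 and 180 CPM in mnd1.a against 209, 237, 249 and 240 in Bowman (-0.24 ± 0.07, adjusted p = 0.0101). HORVU1Hr1G076380 had 279 ± 13.1 CPM (SD, n = 4) in mnd1.a and 291, 423, 390 and 329 CPM in Bowman (-0.36 ± 0.10, adjusted p = 0.0102). The lines of the former met at about 209 CPM and those of the latter overlapped by 1 library, and both line calls held without each library. HORVU1Hr1G076380 rose in Bowman from W3.5 to W5.0 (0.40 ± 0.10, adjusted p = 0.0254), and HORVU3Hr1G071350 from W2.0 to W3.5 (0.28 ± 0.07, adjusted p = 0.00589). The former step was lost without Bowman W3.5 library 1 or W5.0 library 2, 3 or 4 (adjusted p up to 0.104), and the latter without Bowman W3.5 libraries 2 and 4 together (adjusted p = 0.0592).

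LUMINIDEPENDENS, which regulates flowering time in Arabidopsis, is annotated for 2 members. The copy on 3H (HORVU3Hr1G098230) rose from W3.5 to W5.0 in both lines, by 0.26 in Bowman (adjusted p = 0.0341) and 0.25 in mnd1.a (adjusted p = 0.0404), and was not called between the lines. The Bowman step was lost without any of 5 libraries (adjusted p up to 0.12), and the mnd1.a step without any of 8 (up to 0.152) and with limma-voom. The copy on 7H (HORVU7Hr1G104710) had 0 counts in all 10 mnd1.a libraries and in the 3 Bowman libraries at W2.0. In Bowman it had 0.575, 3.32, 0 and 0 CPM at W3.5 and 0.798, 1.41, 0 and 0.507 CPM at W5.0, 49 and 48 counts in all, so that some Bowman libraries also had none, and it was not called. The homeobox-1 gene HORVU1Hr1G087180 had group means between 170 and 189 CPM and no call.

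Further genes were counted by lists of annotation words, and no list was tested as a set. Counts here and in the next paragraph stand beside these shares of all genes. At W2.0, 0.497% were higher and 0.293% lower in mnd1.a, at W3.5 1.77% and 2.13%, and at W5.0 15.0% and 15.2%. Of 21 homeodomain genes whose annotation lacks the word homeobox, 0 were called at W2.0, 3 were lower at W3.5, and 4 were higher and 3 lower at W5.0. BEL1-like homeodomain 8 (HORVU3Hr1G085720) was among the lower genes, at 54.1 ± 8.08 CPM (n = 3) beside 90.1 ± 22.6 CPM (n = 4) in Bowman, by -0.73 ± 0.18 (adjusted p = 0.0292). Of 6 YABBY genes tested, which mark the lower side of leaves in Arabidopsis, 2 were higher at W5.0, for example YABBY 2 (HORVU5Hr1G092430) at 43.9 ± 4.01 beside 27.1 ± 2.74 CPM (n = 4 each, adjusted p = 0.00398). Of 16 OVATE genes tested, whose products bind KNOX and BELL proteins in Arabidopsis, 1 was lower at W3.5 and 2 were higher and 2 lower at W5.0.

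Some ARGONAUTE and LITTLE ZIPPER proteins act on class III HD-Zip genes or proteins in Arabidopsis. Of 15 genes tested in a list built on these names, 1 was lower at W3.5, and 1 was higher and 3 lower at W5.0. LITTLE ZIPPER 4 (HORVU0Hr1G004630), which binds and blocks class III proteins there, had 6.52 ± 1.1 CPM in mnd1.a against 9.48 ± 1.53 in Bowman at W5.0 (n = 4 each, -0.54 ± 0.14, adjusted p = 0.00704). Of 8 cytokinin synthesis genes tested, 1 was lower at W3.5, and 1 was higher and 1 lower at W5.0. Each of these called genes is annotated cytokinin riboside 5'-monophosphate phosphoribohydrolase. Of 8 gibberellin oxidase genes tested, 1 was higher at W3.5, gibberellin 2-oxidase 6 (HORVU1Hr1G023460) at 4.87 ± 1.42 beside 2.87 ± 0.672 CPM (0.76 ± 0.20, adjusted p = 0.0435). The median log2 fold change of the 8 at that stage was negative, at -0.75. Summed, the 11 genes of the list stood at 12.6 to 13.4 CPM in mnd1.a and at 15.9 to 20.1 CPM in Bowman at W3.5. Of 10 genes of the AS and LOB list, LOB domain-containing protein 37 (HORVU2Hr1G035160) was lower in mnd1.a at all 3 stages, by -1.34, -1.17 and -1.08 (adjusted p = 0.000492, 0.000543 and 0.000101), and 1 other was higher at W5.0. Neither of 2 CLAVATA and CLE genes tested was called between the lines.

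Genes with the annotation word MADS were counted as rough markers of floral organs, though the word is not limited to floral organ genes. They were lower in mnd1.a for 12 of 35 tested at W3.5, beside 2.13% of all genes. At W5.0, 7 were lower, beside 15.2% of all genes, with 0 higher at either stage. Their summed level was 739 to 797 CPM in mnd1.a beside 924 to 1130 CPM in Bowman at W3.5, and 927 to 959 beside 1070 to 1390 CPM at W5.0. Vascular markers were higher in mnd1.a for 5 of 22 at W5.0, beside 15.0% of all genes. Their summed level was 181 to 231 CPM in mnd1.a beside 133 to 218 CPM in Bowman. The part of floral and vascular tissue in the line differences of the homeobox genes was not tested.

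The authors' deposited table lists 1, 3 and 17 homeobox members under an FDR of 0.05 for the 3 stages in order. The share of all genes under that FDR was not counted. The 1 member listed at W2.0 was not called here. Of the 6 members called here at W3.5, 3 are among the authors' 3, and of the 16 called at W5.0, 15 are among the authors' 17. The authors' deposited table has 0 members higher and 1 lower at W2.0, 3 higher and 0 lower at W3.5, and 13 higher and 4 lower at W5.0.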

How the data were processed

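The members and gene lists were chosen with earlier results of these data known. The table holds 1 transcript per gene, with annotation credited to Mascher et al. per the file headers; positions are printed as it gives them, with the build not given in the sources used here. The deposited values are the authors' raw counts, per the file headers, here called estimated counts because 94.9% were not whole; they were rounded. The authors' log2 fold changes, p-values and FDR values are used as deposited. Salmon, BWA 0.7.15, GATK and limma are named in the submitters' processing notes, with no step attached. Strand use is likewise not given. Count columns headed W3.0 were taken as W3.5, because the authors' fold changes at W3.5 correlated with the refit from them at r = 0.912 across genes and those of other stages at 0.499 or less. A set of 21 per-sample columns, the authors' log2 CPM, was not used, and the Mesa sample was not analysed here.

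The filter on low counts (filterByExpr, minimum count 10, minimum total 15) kept 21132 genes and removed 3186. All 21 libraries in 6 groups entered 1 model, with TMM factors of 0.902 to 1.08 and edgeR 4.0.16 in R 4.3.3 (robust quasi-likelihood F test), with Benjamini-Hochberg adjustment over all genes tested. Every adjusted p without another name is from this fit. The procedure was tested on simulated data. DESeq2 1.42.0 and limma-voom 3.58.1 were among the alternatives. Named genes are the members called at W2.0 or W3.5, up to 20 called at W5.0, those called in an interaction, every tested KNOX, WOX and BELL gene, the 2 members of each class with the highest CPM, and the 3 largest called changes of each stage step. ROC6 on 4H, the untested members, the LUMINIDEPENDENS copy on 7H, HORVU1Hr1G041790, HORVU2Hr1G097940 and the related genes were added after their values were seen. The division of HD-Zip genes by Pfam domain was made after the annotations were read. The limit of 3 counts covers counting error only.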

Additional observations from a re-analysis of the deposited data

Results flagged for a closer look

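In 7 of 126 groups of 4 libraries screened, over 42 named members, the highest or lowest library stood far from the other three. Chance gives about 1 in 20 groups, so this number is close to what chance gives. Homeobox-1 (HORVU1Hr1G087180) had 186 CPM in Bowman W5.0 library 1, with the others at 190 to 191 CPM. HORVU2Hr1G106970, a START HD-Zip gene, had 107 CPM in Bowman W5.0 library 3, with the others at 118 to 120 CPM. WOX13 (HORVU3Hr1G080660) had 7.92 CPM in Bowman W3.5 library 4, below 12.7 to 13.5 CPM, and 12.6 CPM in Bowman W5.0 library 1, above 9.83 to 10.0 CPM. LUMINIDEPENDENS on 3H (HORVU3Hr1G098230) had 76.6 CPM in mnd1.a W5.0 library 2, below 82.2 to 83.1 CPM. Knotted-1-like 4 (HORVU4Hr1G003360) had 2.68 CPM in Bowman W3.5 library 1, above 1.08 to 1.16 CPM. The BEL1 homolog HORVU7Hr1G088090 had 30.9 CPM in Bowman W5.0 library 4, above 22.5 to 23.2 CPM.

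By edgeR's interaction test 5 members were called. For W5.0 against W3.5 it was 1 member, beside 1.02% of all genes, and for W5.0 against W2.0 4, beside 10.3%. Library code cannot be told apart from stage in these tests. With 1 library left out, the call held in 7 of 21 fits for HORVU2Hr1G095210, 20 for HORVU5Hr1G080700 and 12 for HORVU6Hr1G079410. It held in 11 of 21 for HORVU2Hr1G061320 and likewise in 11 for HORVU5Hr1G098570. For HORVU2Hr1G095210 the deficit of mnd1.a at W3.5 (-2.62 on the log2 scale) was not seen at W5.0, where the lines overlapped, a change of 2.55 (adjusted p = 0.0386). The line difference was larger at W5.0 than at W2.0 by 1.12 for HORVU5Hr1G080700 (adjusted p = 0.0187) and by 0.61 for HORVU6Hr1G079410 (adjusted p = 0.0382). It changed by -0.99 for HORVU2Hr1G061320 (adjusted p = 0.0341) and by -1.12 for HORVU5Hr1G098570 (adjusted p = 0.0334), the knotted-1-like 12 genes.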

How the results depend on the processing

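No called value of a named member reversed under any alternative run. Of 22 called line differences, 9 kept their call without each library and 13 lost it without at least 1. DESeq2 ended 0 of them, limma-voom 4, RLE scaling 1, no filter 1, the fit on 2 groups alone 7 and the fit without Bowman W3.5 libraries 2 and 4 ended 4. DESeq2 called 5 members higher at W3.5 instead of 3, 2 instead of 0 in the interaction of W3.5 against W2.0, and 8 instead of 5 from W3.5 to W5.0 in Bowman. Limma-voom called 0 members lower at W3.5 and 0 in the interaction of W5.0 against W3.5. The fit on 2 groups alone called 0 higher and 0 lower at W3.5. Without Bowman W3.5 libraries 2 and 4 the counts were 1 higher and 1 lower at W3.5, 0 in the interaction of W5.0 against W3.5, 12 and 11 for the successive steps in Bowman instead of 20 and 5, and 4 for the first step in mnd1.a instead of 2. With an adjusted p under 0.01 and at least a 2-fold change, they were 1 and 1 at W3.5, 2 higher and 0 lower at W5.0, 0 in each interaction, 7 and 0 for the steps in Bowman, and 0 and 3 in mnd1.a. The counts at W2.0 stayed at 0 in every fit. Leaving out 1 library at a time gave 1 to 4 higher and 1 to 5 lower at W3.5, 6 to 13 higher and 3 to 6 lower at W5.0, 0 to 2, 0 to 1 and 0 to 8 in the interactions, 12 to 24 and 0 to 10 for the steps in Bowman, and 0 to 2 and 2 to 15 in mnd1.a. The causes were not tested. No paired analysis was possible because the labels give no replicate numbers that tie libraries across groups. Depth limits the scarce members, whose groups hold few counts.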
